A study of Mus musculus with 31 samples.

Results

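H3K4me3, the trimethylated form of lysine 4 on histone H3, was deposited as differential lists from the hippocampus of C57BL6 mice, and 252 regions of these lists moved in the same direction under TAK-418 in both genotypes. TAK-418 inhibits LSD1, the histone demethylase encoded by Kdm1a. The treated heterozygotes (KMT2D+/bGeo) carried a bGeo insertion in 1 copy of Kmt2d and were gavaged with 1 mg/kg/day of TAK-418 in methylcellulose, and the vehicle heterozygotes carried the same allele and received methylcellulose alone. The treated wild types and the vehicle wild types had both copies of Kmt2d intact and were given the same pair of gavages. All 4 groups were dosed for 2 weeks from 2 weeks of age, were 30 days old by their labels, and gave 4 H3K4me3 libraries each, 1 per mouse. H3K4me1, the monomethylated form, had 4 libraries per group except the treated wild types, with 3. The tissue was whole hippocampus, so a change in the mark per cell and a change in the mix of cells cannot be told apart. Sex is not given in the sources used here; H3K4me3 libraries with peaks on the Y chromosome away from its distal end numbered 3 of 4 in treated heterozygotes, 2 of 4 in vehicle heterozygotes, 2 of 4 in treated wild types and 1 of 4 in vehicle wild types.

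H3K4me3 sits at the start sites of active and poised genes, where CpG-rich promoter DNA recruits the methyltransferases that lay it down, and H3K4me1 marks enhancers and the shoulders of promoters. The product of Kmt2d methylates lysine 4 mainly at enhancers, and that of Kmt2a at promoters. LSD1 removes methyl groups from mono- and dimethylated lysine 4 and does not act on the trimethylated form, which is removed by the KDM5 enzymes.

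The members were chosen by the deposited H3K4me3 scores and listing themselves. A region was taken when it stood in the authors' list of TAK-418 against vehicle in heterozygotes, overlapped by at least 1 base a region of the list of TAK-418 against vehicle in wild types, had the same sign of the difference between mean scores in both, and overlapped no region of the list of vehicle heterozygotes against vehicle wild types. Only autosomes and the X chromosome were used, and the 2 treatment lists have no library in common. The heterozygote list held 1675 regions and the wild type list 2749. Of the 1675, 741 overlapped a wild type region, 499 of them with the same sign and 242 only with the opposite sign. The genotype list overlapped 247 of the 499, which left 252, 15.0% of the heterozygote list. Of these, 201 were higher and 51 lower with TAK-418. In the whole lists, 67.8% of heterozygote regions and 63.3% of wild type regions were listed as higher, and 32.2% and 36.7% as lower. The sign chose the regions, so this split is a description. At the edge of the rule, the smallest −log10 p of a member was 1.303 in heterozygotes, at Phf13, and 1.31 in wild types, at Zbtb7c, where the lists themselves begin. The shortest overlaps were 50 bases, near Sp110 and Cstf3, and just outside stood regions near Sp140 and Zfp988 that touched a wild type region of the same sign with a gap of 0 bases. The 252 rest on 250 distinct wild type regions.

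Each list gives 4 whole-number H3K4me3 scores per group, whose unit and order of libraries no source used here gives. The members were sorted into 5 exclusive kinds by position and by the deposited peaks. Runs were chains of at least 5 members less than 100 kb apart, and held 47 members. Recurrent members had peaks in 8 or more H3K4me3 and 8 or more H3K4me1 libraries, and 24 of them lay outside runs. A further 40 overlapped no peak in any of the 31 libraries, 15.9% of the members against 14.3% of the heterozygote list and 6.51% of the wild type list. Recurrent regions, inside runs or outside, made up 18.7% of the members, 17.6% of the heterozygote list and 9.02% of the wild type list. Of the rest, 104 lay within 2 kb of an end of a protein-coding gene and 37 had a peak elsewhere. The kinds were split unevenly by direction: gene ends held 66 higher and 38 lower members, runs 44 and 3, regions without a peak 40 and 0, recurrent regions 23 and 1, and other regions with a peak 28 and 9. Counting members of every kind, 74.5% of the lower ones and 40.3% of the higher ones lay at a gene end, against 51.4% of all regions in the heterozygote list and 71.1% in the wild type list. The kinds were not split by direction over the whole lists. Whether these uneven splits are particular to the members is therefore unknown.

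The promoters show the sequence setting of the gene ends. Of the named gene-end members described further on, 3 higher and 3 lower ones are given, from 250 bases before to 50 after the transcription start, on the gene's own strand, from RefSeq GRCm38.p6 (mm10). Capitals mark GGGCGG, the GC box bound by SP and KLF factors, CCAAT, the box bound by NFY, and CCGGAAG, bound by ETS factors, on either strand. These windows lie at chr12:87299656-87299955 (minus strand) for Ism2, chr3:88142122-88142421 (plus) for Mef2d, chr9:44881240-44881539 (minus) for Kmt2a, chr15:97705773-97706072 (minus) for Rpap3, chr10:71237995-71238294 (minus) for Tfam and chr1:131138185-131138484 (minus) for Dyrk3.
Ism2: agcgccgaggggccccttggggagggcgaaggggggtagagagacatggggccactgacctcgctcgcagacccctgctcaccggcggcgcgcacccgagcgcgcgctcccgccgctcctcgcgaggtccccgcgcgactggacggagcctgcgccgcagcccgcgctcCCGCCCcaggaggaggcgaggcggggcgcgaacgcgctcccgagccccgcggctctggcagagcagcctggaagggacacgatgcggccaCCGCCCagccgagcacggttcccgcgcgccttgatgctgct
Mef2d: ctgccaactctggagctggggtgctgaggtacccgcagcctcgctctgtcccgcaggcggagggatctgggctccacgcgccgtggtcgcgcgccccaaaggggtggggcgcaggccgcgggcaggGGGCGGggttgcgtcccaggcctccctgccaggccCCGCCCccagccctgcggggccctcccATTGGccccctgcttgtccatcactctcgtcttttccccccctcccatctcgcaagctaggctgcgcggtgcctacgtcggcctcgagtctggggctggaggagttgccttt
Kmt2a: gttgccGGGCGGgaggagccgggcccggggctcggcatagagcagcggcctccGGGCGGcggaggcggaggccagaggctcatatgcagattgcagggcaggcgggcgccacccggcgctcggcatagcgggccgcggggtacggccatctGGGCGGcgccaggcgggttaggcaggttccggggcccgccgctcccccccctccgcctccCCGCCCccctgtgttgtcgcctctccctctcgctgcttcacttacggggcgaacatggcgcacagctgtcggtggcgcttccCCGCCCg
Rpap3: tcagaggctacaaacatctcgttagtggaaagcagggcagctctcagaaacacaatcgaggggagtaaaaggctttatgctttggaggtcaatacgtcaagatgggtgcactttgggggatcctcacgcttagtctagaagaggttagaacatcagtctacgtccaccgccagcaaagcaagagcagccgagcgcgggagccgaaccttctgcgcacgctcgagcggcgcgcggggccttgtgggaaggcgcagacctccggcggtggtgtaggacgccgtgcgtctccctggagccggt
Tfam: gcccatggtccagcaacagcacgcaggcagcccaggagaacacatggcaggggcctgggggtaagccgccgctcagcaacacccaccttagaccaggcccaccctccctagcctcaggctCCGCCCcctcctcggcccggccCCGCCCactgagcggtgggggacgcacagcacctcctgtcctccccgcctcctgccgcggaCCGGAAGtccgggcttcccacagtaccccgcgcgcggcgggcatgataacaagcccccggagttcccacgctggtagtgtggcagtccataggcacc
Dyrk3: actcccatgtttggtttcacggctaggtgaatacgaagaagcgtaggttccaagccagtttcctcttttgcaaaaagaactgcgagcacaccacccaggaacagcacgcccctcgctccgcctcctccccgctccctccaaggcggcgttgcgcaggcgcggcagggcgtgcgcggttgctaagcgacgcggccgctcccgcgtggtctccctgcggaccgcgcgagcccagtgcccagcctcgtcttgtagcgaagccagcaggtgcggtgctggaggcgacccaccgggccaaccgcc
The higher examples hold 2 GC boxes in Ism2, 2 in Mef2d with 1 CCAAT box, and 5 in Kmt2a. Among the lower ones, Tfam holds 2 GC boxes and 1 ETS match, and Rpap3 and Dyrk3 hold no match to these 3 motifs. CpG dinucleotides numbered 43, 24 and 36 in the 3 higher windows and 24, 21 and 32 in the 3 lower ones.

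Promoter windows of this table were found for 51 start sites at higher gene-end members and 29 at lower ones. Their GC content had a median of 69.3% at the higher and 64.7% at the lower members, against 67.7% at the 628 start sites of other regions in the heterozygote list and 52.7% over all 32851 windows. The median number of CpG dinucleotides was 32 and 26, against 29 and 7. GGGCGG stood in 74.5% of the higher and 58.6% of the lower windows, against 78.5% at the other listed start sites and 35.7% of all windows. CCGGAAG stood in 3 higher windows (5.88%) and 7 lower ones (24.1%), against 15.6% and 8.86%. CCAAT was near the share of all windows, with 39.2% and 34.5% against 34.7% and 37.4%. TATAAA, the TATA box, stood in 1.96% and 3.45%, against 4.94% and 13.6%. TGACGTCA, the cyclic AMP response element, had 1 match in the higher and 0 in the lower. Members and the other start sites of the list both stood far above all windows in CpG and GC box content, and the CCGGAAG counts are small. All motifs were searched on both strands, and no motif holds another within its letters.

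Outside recurrent regions, 97 members had their centre within 2 kb of a start site in that table, and 83 of these, 85.6%, lay downstream of it, against 88.8% in the whole heterozygote list and 84.2% in the wild type list. The centre lay downstream at 52 of 63 higher members, with a median of 265.5 bases along the gene from the start, and at 31 of 34 lower members, with a median of 316.5 bases. In both directions most centres lay within 800 bases downstream, 48 of 63 higher and 28 of 34 lower ones.

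**Figure D1:**
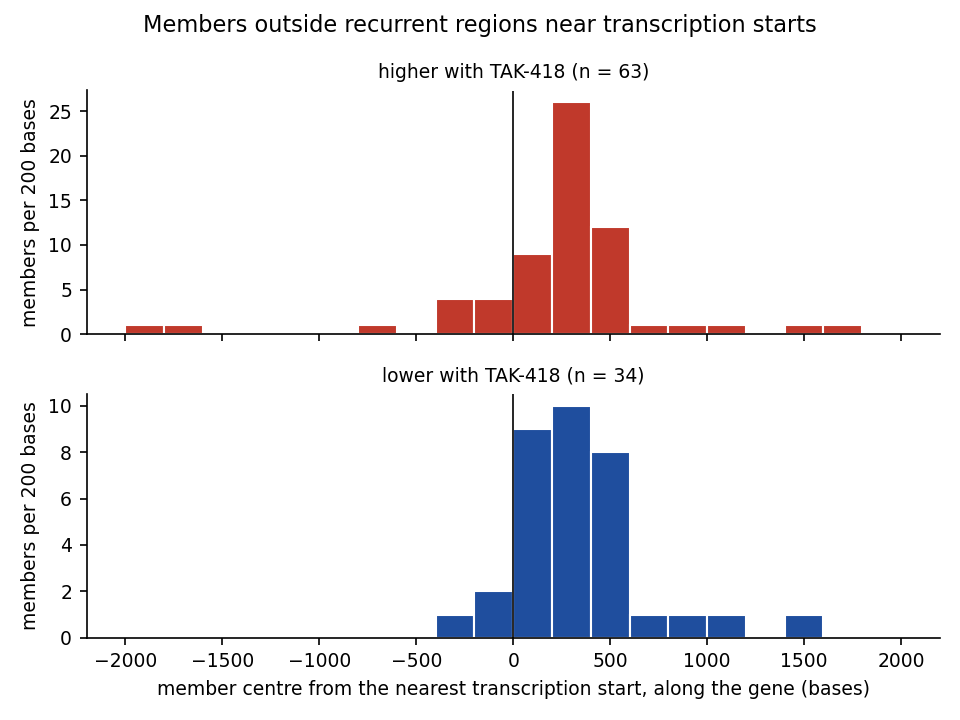
Number of members outside recurrent regions per 200 bases (vertical axis) by the distance of the member's centre from the nearest transcription start along the gene in bases (horizontal axis), higher members above and lower members below. The fullest bin of both directions is 200 to 400 bases downstream, with 26 of 63 higher and 10 of 34 lower members.

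The H3K4me3 ratios were modest and of like size in both genotypes. Log2 ratios in the text are of mean scores plus 10, TAK-418 over vehicle. The 201 higher members had a median of 0.54 in heterozygotes and 0.49 in wild types, against 0.55 and 0.50 for all higher regions of those lists. The 51 lower members had medians of −0.59 and −0.47, against −0.53 and −0.52. Scores of the treated and the vehicle group did not overlap at 0 of 252 members in heterozygotes and at 1 in wild types. In the whole lists, groups did not overlap at 0.299% of heterozygote and 0.509% of wild type regions.

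**Figure D2:**
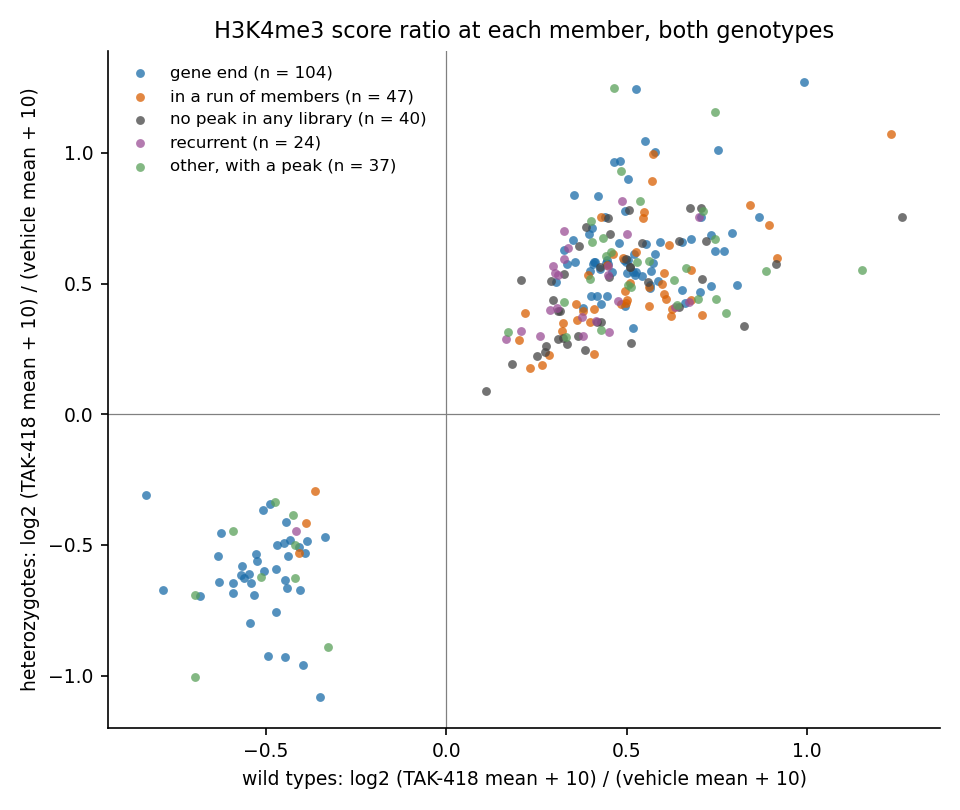
Each point is 1 of the 252 members, with the log2 ratio of H3K4me3 scores (TAK-418 mean plus 10 over vehicle mean plus 10) in heterozygotes on the vertical axis and in wild types on the horizontal axis, coloured by the kind of position. Ism2, at 1.27 and 0.99, stands at the upper right; the empty opposite quadrants follow from the rule.

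The 66 higher gene-end members touch 72 genes and the 38 lower ones 41. Genes at the higher members included, in genome order, Map4k4, Bard1, Psmd1, Lin9, Lbr, Sephs1, Abi1, Tor1a, Strbp, Cstf3, Rrbp1, Fat4, Foxo1, Lrba, Mef2d, Fnbp1l, Eif4e, Syde2, Chd7 (with a pair of members), Frrs1l with Epb41l4b, Tut4, Eri3, Hnrnpr, Zfp992, Phf13, Pisd, Gm42517, Glt1d1 with Slc15a4, Zfp316, Atp11a, Ppp2cb, Gm51571 with Gm51572, Psme3ip1 with LOC115486880 and Rspry1, Phlpp2, Egln1, Kmt2a, Sema7a, Pomgnt2, Ckap4, 0610010F05Rik, Bod1, Kif3a, Ppm1a, Sgpp1, Jdp2, Ism2, Btbd7, Mier3, Tmem267, Akap11, Atf4, Sbf1, Lpp, Atp13a3, Ubxn7, Usp25, Dyrk1a, Zfp53 with Zfp52, Bin1, Atp8b1, Rcl1 and Smc3. All genes at the lower members were 4931408C20Rik, Dyrk3, Skida1, Cacnb4, Atp5g3, Stau1, Prpf38b, Adprhl2 with Tekt2, Sfpq, Eya3, Wdr1, Fkbp4, Zfp324, Hps5 with Gtf2h1, Rnf169, Gde1, Tsnax, Bace1, Dpp8, Ddit4, Tfam, Crk, Ppp1r9b, Gpatch8, Snx13, Max, Rbm24, Dgkh, Dach1, Pabpc1, Rpap3, Zfp871, Mta3, Ndfip1, Atg12 with Ap3s1, Ppargc1b, Zbtb7c and Patl1.

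Ism2, which encodes the secreted protein isthmin 2, had the largest heterozygote ratio of the members. Its member, chr12:87299651-87300250 (mm10), covers the whole promoter window and its centre lies at −245.5 bases from the start, upstream of it. Scores were 204, 48, 158 and 106 in treated heterozygotes, against 60, 73, 37 and 20 in vehicle heterozygotes. They were 164, 94, 193 and 95 in treated wild types, against 31, 90, 115 and 19 in vehicle wild types. In heterozygotes 3 of the 4 treated scores stood above every vehicle score, and in wild types all 4 treated scores stood above 3 of the 4 vehicle scores. The means were 129 ± 67.2 and 47.5 ± 23.6 in treated and vehicle heterozygotes, and 136.5 ± 49.9 and 63.8 ± 46.2 in treated and vehicle wild types (SD, n = 4 each).

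Mef2d encodes a MADS-box transcription factor of neurons and muscle. Its member, chr3:88142651-88143200, begins 279 bases downstream of the start site of the promoter window shown. The nearest end of the gene is 710 bases away. Scores there were 66, 55, 273 and 58 in treated heterozygotes and 54, 115, 9 and 26 in vehicle heterozygotes. In wild types they were 38, 104, 321 and 130 with TAK-418 and 55, 79, 154 and 48 with vehicle. One score per group, the third in 3 of the groups and the second in vehicle heterozygotes, was the highest, and the groups overlapped. The log2 ratio was 1.01 in heterozygotes and 0.75 in wild types; without the treated score of 273 the first was 0.19, and without that of 321 the second was 0.099.

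Sephs1, a selenophosphate synthetase homologue, and Tut4, a terminal uridylyltransferase that tags RNA tails, were the other gene-end members among the 10 highest-ranked. Sephs1 (chr2:4882051-4882550) had scores of 91, 83, 162 and 92 in treated heterozygotes against 47, 127, 26 and 37 in vehicle heterozygotes, and of 155, 97, 412 and 106 in treated wild types against 61, 90, 216 and 37 in vehicle wild types. Its treated scores lay above all but 1 vehicle score in heterozygotes, and the log2 ratios were 0.76 in heterozygotes and 0.87 in wild types. Leaving out the treated score of 162 gave 0.51 in heterozygotes, and leaving out that of 412 gave 0.22 in wild types. Tut4 (chr4:108460151-108460550) had 93, 82, 187 and 45 against 7, 98, 43 and 77 in treated and vehicle heterozygotes, and 189, 150, 419 and 127 against 21, 133, 282 and 91 in treated and vehicle wild types. The groups overlapped in both genotypes, with log2 ratios of 0.75 and 0.71. These were 0.33 in heterozygotes without the treated score of 187 and 0.22 in wild types without that of 419.

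Kmt2a, the promoter methyltransferase also called MLL1, was the only gene of 18 in a list of H3K4 methyltransferase complexes with a member at an end. Its member, chr9:44880701-44881100, begins 189 bases downstream of the start site of the promoter window shown. The nearest end of the gene is 252 bases away. Treated heterozygotes had scores of 52, 23, 215 and 71, against 39, 101, 51 and 37 in vehicle heterozygotes. Treated wild types had 139, 65, 234 and 38, against 31, 89, 135 and 93 in vehicle wild types. The log2 ratios of 0.58 and 0.41 rested on 1 treated score in each genotype: without the score of 215 the heterozygote ratio was −0.19, and without 234 the wild type ratio was −0.10. None of the 18 genes of the list of demethylases and LSD1-CoREST had a member, and over the whole lists 1 of those 18 genes was near a higher and 0 near a lower region in heterozygotes, and 1 near a higher and 2 near a lower one in wild types. Of all 21900 protein-coding genes, 480 were near a higher and 465 near a lower heterozygote region, and 1285 and 962 near a wild type one. The remaining lists, of cell types, immediate early genes, the Wnt pathway, ribosomal proteins, the respiratory chain, clock genes and Hox genes, had a member only at Wls. For comparison, 127 of all protein-coding genes had a member at an end.

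Lower members lay at genes of varied roles. Rpap3 encodes an adaptor of the HSP90 co-chaperone complex that assembles RNA polymerase II. Its member, chr15:97705501-97705850, overlaps the promoter window by 78 bases and had scores of 12, 8, 140 and 39 in treated heterozygotes against 43, 132, 142 and 30 in vehicle heterozygotes. In wild types the scores were 44, 54, 169 and 88 with TAK-418 and 69, 169, 247 and 109 with vehicle. In each genotype 2 of the 4 treated scores lay below every vehicle score, and the log2 ratios were −0.70 in heterozygotes and −0.68 in wild types. With any 1 score left out they ran from −1.71 to −0.39 and from −1.14 to −0.35.

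Bace1 encodes the beta-secretase that cuts the amyloid precursor protein. Its member at chr9:45838851-45839300 had scores of 20, 30, 182 and 33 in treated heterozygotes against 126, 222, 43 and 45 in vehicle heterozygotes. Treated wild types had 48, 24, 197 and 78 against 98, 70, 230 and 160 in vehicle wild types. In heterozygotes, 3 treated scores stood below every vehicle score and the remaining treated score was the second highest of the 8. The log2 ratio was −0.64 in heterozygotes and −0.63 in wild types; without the vehicle score of 222 the first was −0.093, and without that of 230 the second was −0.30.

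Tfam encodes the factor that packages and transcribes mitochondrial DNA. Scores at chr10:71237751-71238000 were 16, 10, 101 and 8 in treated heterozygotes against 36, 95, 59 and 44 in vehicle heterozygotes, and 0, 42, 212 and 65 in treated wild types against 49, 92, 263 and 97 in vehicle wild types. In heterozygotes 3 treated scores lay below every vehicle score and 1 above them all. The log2 ratios were −0.65 and −0.59, and without the vehicle score of 263 the wild type ratio was 0.0067. The heterozygote ratio was −0.36 without the vehicle score of 95.

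Skida1, a gene of the SKI/DACH domain family, had scores of 54, 0, 212 and 27 in treated heterozygotes against 123, 160, 155 and 53 in vehicle heterozygotes, and 37, 39, 150 and 46 in treated wild types against 103, 95, 176 and 123 in vehicle wild types. Rbm24, a splicing regulator of muscle, had 14, 12, 136 and 24 against 77, 139, 80 and 27 in treated and vehicle heterozygotes and 41, 42, 110 and 71 against 100, 92, 136 and 90 in treated and vehicle wild types. At both, 3 of 4 treated wild type scores lay below every vehicle score. Log2 ratios at Skida1 were −0.67 in heterozygotes and −0.78 in wild types, and at Rbm24 −0.68 and −0.59. Single scores left out moved Skida1 to between −1.84 and −0.30 in heterozygotes and between −1.41 and −0.585 in wild types, and Rbm24 to between −1.77 and −0.34 and between −0.90 and −0.44. The other gene-end members of the 10 ranked first among lower ones were at Dyrk3, a kinase that dissolves stress granules, Zfp324, a zinc finger gene, and Atg12, the ubiquitin-like autophagy protein, whose member also lies near an end of Ap3s1, a subunit of the AP-3 adaptor. Their log2 ratios ran from −0.63 to −0.58 in heterozygotes and were all −0.57 or −0.56 in wild types. The weakest value with 1 score left out was −0.21 in heterozygotes, at Zfp324, and −0.20 in wild types, at Atg12 with Ap3s1. The first-ranked lower member, inside Nol4l, overlaps a Nol4l promoter window, with its centre 103.5 bases downstream of that start. It was not counted as a gene end because the nearest end of the gene lay 36740 bases away. Its ratios were −1.004 in heterozygotes and −0.70 in wild types, the second −0.38 without 1 vehicle score. One 6389 bases from Gm32719 had −0.69 in each genotype, −0.43 and −0.42 at the weakest with 1 score left out.

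**Figure D3:**
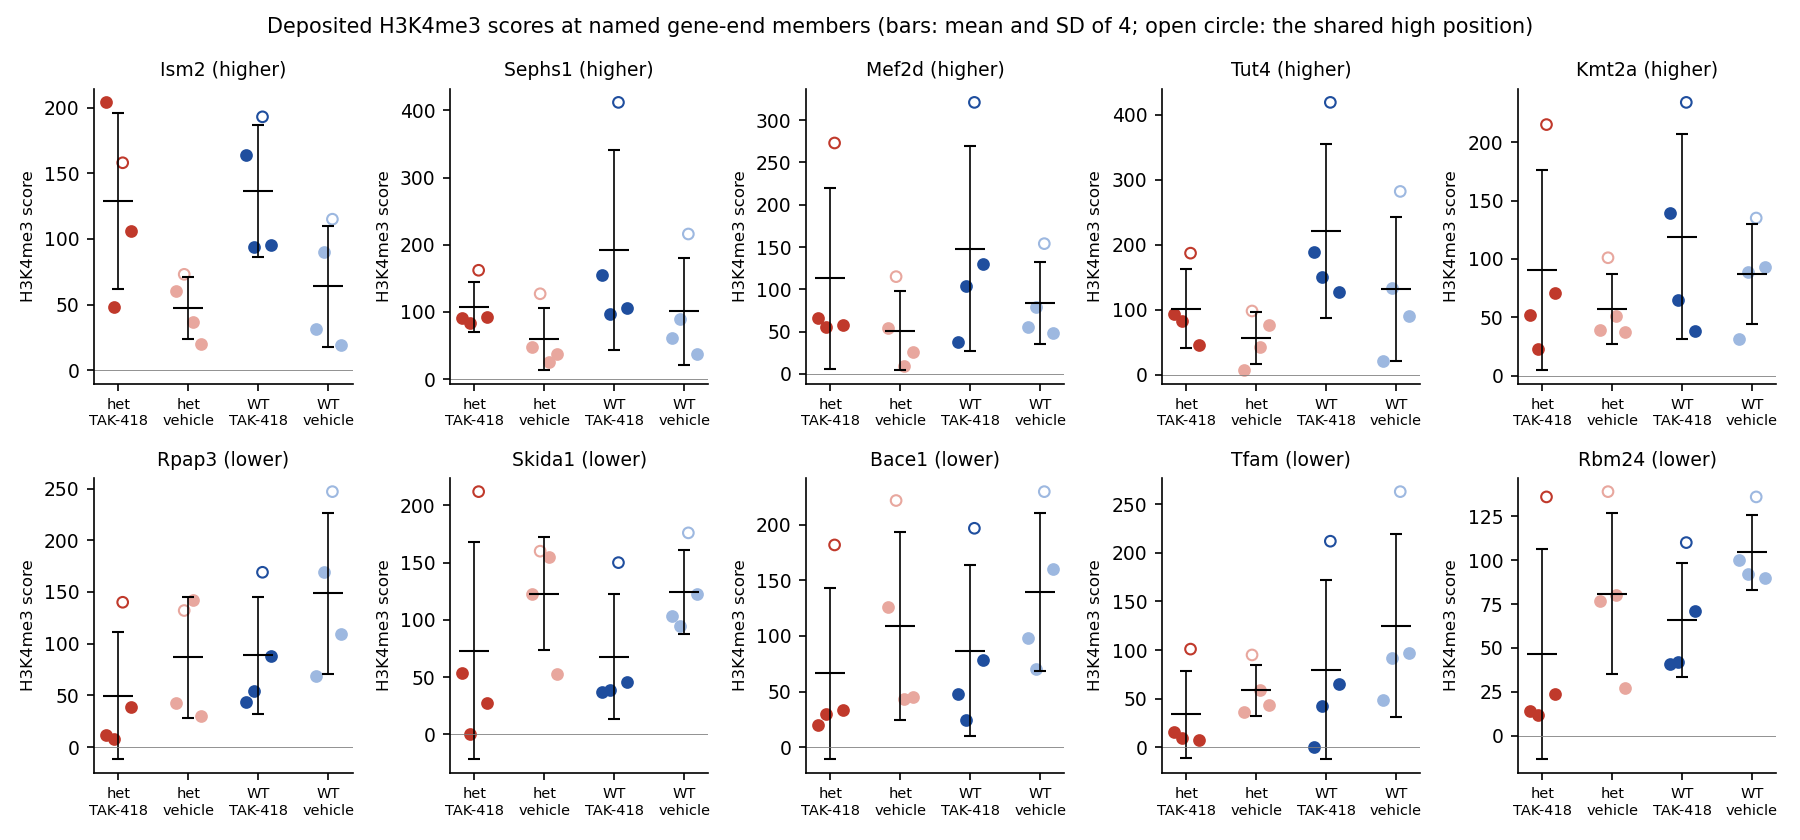
The 4 deposited H3K4me3 scores of each group (vertical axis) at 5 higher and 5 lower gene-end members, with treated and vehicle heterozygotes and then treated and vehicle wild types along the horizontal axis; bars show the mean and SD of 4. Open circles mark the score position that was highest at most gene ends in that group; at Bace1 it stood at 182 in treated heterozygotes, with the other treated scores at 20, 30 and 33.

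One score position per group stood apart at gene ends. It was the third in treated heterozygotes, the second in vehicle heterozygotes and the third in both wild type groups, and was the highest of its group at 98, 89, 98 and 89 of the 104 gene-end members. At the 38 lower gene ends its median was 159.5 in treated and 168 in vehicle heterozygotes, and 202 in treated and 224 in vehicle wild types. The treated score at that position exceeded the vehicle one at 18 of 38 in heterozygotes and 13 of 38 in wild types. The other 3 positions had a median mean of 29.2 in treated and 88.2 in vehicle heterozygotes, and of 50.7 in treated and 105.7 in vehicle wild types. The medians were thus lower with TAK-418 at the high position and at the others, with a wider gap at the others. Without the high position the median log2 ratio at lower gene ends was −1.13 in heterozygotes and −0.85 in wild types, a description, since these same scores chose the members. At the 66 higher gene ends both the high position and the others were higher with TAK-418. There the high position had a median of 190.5 in treated and 103 in vehicle heterozygotes, and 269.5 in treated and 158.5 in vehicle wild types. The other positions had 70.7 against 44.2 in treated and vehicle heterozygotes and 107 against 78.7 in treated and vehicle wild types. Without the high position the median log2 ratios there were 0.52 in heterozygotes and 0.39 in wild types.

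**Figure D4:**
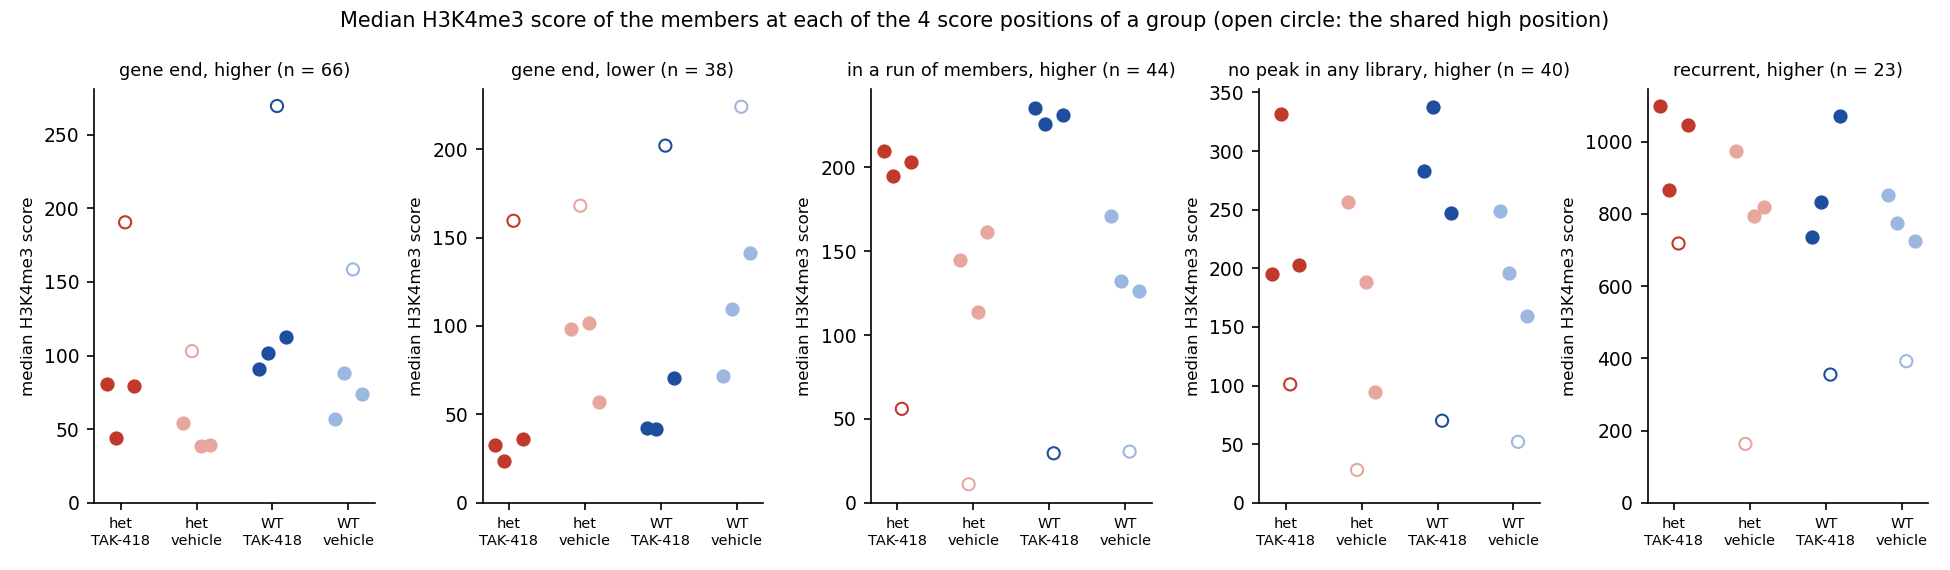
Median H3K4me3 score over the members of a kind (vertical axis) at each of the 4 score positions of treated and vehicle heterozygotes and treated and vehicle wild types (horizontal axis). The open circle, the position highest at most gene ends, is high at both sets of gene ends and low at the higher members of runs, without a peak and in recurrent regions; over the 44 higher run members it is 56 against 195 to 210 at the other positions in treated heterozygotes.

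The 40 members without a peak were all higher with TAK-418. Their log2 medians were 0.51 in heterozygotes and 0.43 in wild types. Among them, a region 219871 bases from Ajap1 ranked highest, at chr4:153153001-153153350, with scores of 200, 134, 97 and 79 in treated heterozygotes against 77, 0, 38 and 171 in vehicle heterozygotes, and 96, 130, 27 and 86 in treated wild types against 50, 57, 0 and 11 in vehicle wild types. In wild types 3 of 4 treated scores exceeded every vehicle score, while in heterozygotes the groups overlapped. The log2 ratio in heterozygotes was 0.75, and it was 0.38 without the vehicle score of 0 and 1.51 without that of 171. The score position that was highest at gene ends was the lowest of its group at 37, 38, 40 and 38 of these 40 members in treated and vehicle heterozygotes and treated and vehicle wild types. Without that position 39 of the 40 stayed higher in both genotypes, with median log2 ratios of 0.39 in heterozygotes and 0.44 in wild types. This is a description, since these same scores chose the members, and whether that position bears on the result was not tested.

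Runs of members lay in 5 loci, several of them families of related genes. The longest was on chromosome 1, chr1:84976551-85298250, with 16 members, 14 higher and 2 lower, over 321.7 kb that hold A530032D15Rik, Gm38510, Gm7609, C130026I21Rik and 6 pseudogenes. Next to it, chr1:85488901-85635150 held 13 members beside Sp110 and Sp140, genes of the nuclear body family. A run of 7 higher members covered the Ugt1a cluster, which encodes glucuronidating enzymes, with Mroh2a and Hjurp (chr1:88212001-88302750). The others were 6 higher members at Zfp978 and Zfp982 on chromosome 4 (chr4:147345201-147453100) and 5 higher members at Sfi1 on chromosome 11 (chr11:3100301-3167400). In the order given, these spans held 93, 42, 36, 26 and 36 regions of the whole heterozygote list, so the list itself is dense there. They also held 73, 35, 17, 17 and 26 regions of the wild type list and 62, 28, 11, 10 and 29 of the genotype list. The members overlap none of the genotype regions by the rule, but the loci are not free of them. Chromosome 1 held 53 of the 252 members and 303 of the 1675 regions of the heterozygote list. Where copies in these families are near-identical, the authors' alignment could split reads between them, so values there are uncertain.

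Within the runs, named members were near Zfp988 on chromosome 4, near Trpm8, the cold-sensing channel, and inside Mroh2a. The first of these, 12134 bases from Zfp988 and inside Zfp978, ranked first of all higher members and had scores of 203, 260, 75 and 202 in treated heterozygotes against 94, 0, 105 and 132 in vehicle heterozygotes, and 108, 120, 11 and 172 in treated wild types against 28, 83, 9 and 32 in vehicle wild types. In each genotype 3 of 4 treated scores exceeded every vehicle score. The log2 ratios were 1.07 in heterozygotes and 1.23 in wild types, and the first was 0.70 without the vehicle score of 0. Near Trpm8 the log2 ratios were 0.80 and 0.84, and inside Mroh2a 0.73 and 0.89, in heterozygotes and wild types. With 1 vehicle score left out, the lowest score of its group, these were 0.43 and 0.55 near Trpm8 and 0.41 and 0.56 inside Mroh2a. In runs the score position highest at gene ends was the lowest at 44, 47, 47 and 46 of 47 members in treated and vehicle heterozygotes and treated and vehicle wild types. Without that position 43 of the 44 higher and 3 of the 3 lower run members kept their direction in both genotypes. The median log2 ratios of the higher ones were then 0.38 in heterozygotes and 0.57 in wild types. These same scores chose the members, and the part of that position in the result was not tested.

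Recurrent members had the highest scores. The one at Wls, which encodes the carrier of Wnt proteins to the cell surface, lay 685 bases beyond the gene (chr3:159939351-159939900) and overlapped a peak in 14 H3K4me3 and 13 H3K4me1 libraries. Its scores were 2753, 2317, 1504 and 2961 in treated heterozygotes against 1628, 534, 1369 and 1865 in vehicle heterozygotes, and 1931, 2390, 366 and 2835 in treated wild types against 2103, 1471, 562 and 1223 in vehicle wild types. In heterozygotes 3 treated scores exceeded every vehicle score and in wild types 2 did, and the ratios of means were 1.77 and 1.40. On the log2 scale these were 0.82 and 0.49, and the second was 0.22 without the treated score of 2835. The first-ranked recurrent members were near Smgc and C130026I21Rik and at Gm2427 among the higher, with log2 ratios of 0.50 to 0.75 in heterozygotes and 0.51 to 0.70 in wild types. Near Tcte2, Gm38510 and Gm2427 the lower ones had ratios of −0.53 to −0.42 and −0.42 to −0.39. Those near C130026I21Rik and Gm38510, and the higher and lower ones of Gm2427, also lie in the runs on chromosome 1. They are counted among the run members. With 1 score left out, values as small as 0.15 in heterozygotes and 0.25 in wild types were found at the higher ones, and −0.081 and −0.065 at the lower ones near Gm2427. At the one near Tcte2 the direction rested on 1 vehicle score in each genotype, and without it the ratios were 0.067 and 0.068. Whether the authors removed problem regions of the genome is not given in the sources used here.

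Of the 37 other members with a peak, 3 lay near Fcgr3, an IgG receptor of microglia. One at chr1:171072301-171073650, 6386 bases from the gene, was the only member whose groups did not overlap in a genotype. There treated wild types had scores of 497, 585, 807 and 648, against 366, 475, 261 and 365 in vehicle wild types, with means of 634 ± 131 and 367 ± 87.4 (SD, n = 4 each). Treated heterozygotes had 331, 223, 375 and 293, against 248, 161, 312 and 203 in vehicle heterozygotes, which overlap. A second, 13386 bases away, had 106, 43, 139 and 40 in treated heterozygotes against 8, 31, 51 and 35 in vehicle heterozygotes, and 341, 421, 712 and 474 in treated wild types against 362, 285, 273 and 226 in vehicle wild types. The third, 13836 bases away, overlaps the same wild type region as the second and adds no wild type value of its own. The 12 microglial genes listed had no member within 2 kb of an end. A member 9754 bases inside Zfp980 was also among the first 10, with log2 ratios of 0.78 and 0.71, and of 0.41 and 0.34 when the lowest vehicle score was left out.

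Deposited H3K4me3 peaks showed how few libraries mark the gene ends. One library per group had a long peak list, of 16167, 16390, 16750 and 13343 peaks in treated and vehicle heterozygotes and treated and vehicle wild types, and the other 12 had 302 to 2281. The long lists overlapped 103, 101, 102 and 102 of the 104 gene-end members, and the others 1 to 35. Over all members, 70, 59, 186 and 79 had a peak in the treated heterozygote libraries against 63, 147, 43 and 69 in the vehicle heterozygote ones, and 81, 54, 175 and 120 in the treated wild type libraries against 76, 103, 154 and 47 in the vehicle wild type ones. In each group the library with the long list had the most members with a peak. In runs those 4 libraries had a peak at 29, 7, 23 and 12 of the 47 members. Peaks at genes of fixed lists were also counted in these 4 libraries. An H3K4me3 peak lay within 2 kb of an end of 18, 16, 18 and 16 of 20 genes of excitatory hippocampal neurons and synapses. These numbers are for treated and vehicle heterozygotes and treated and vehicle wild types. In the same order of groups, such a peak was found at 7, 7, 8 and 5 of 12 genes of inhibitory neurons and 15, 12, 15 and 13 of 16 genes of neural progenitors. Astrocyte genes had 8, 5, 7 and 4 of 10, and oligodendrocyte genes 5, 8, 6 and 4 of 10. Vascular genes had 5, 5, 5 and 3 of 10, choroid plexus and ependymal genes 2, 4, 3 and 2 of 8, microglial genes 2, 3, 1 and 1 of 12 and blood cell genes 0, 0, 1 and 0 of 8. Counts were higher in the treated library of both genotypes for excitatory neuron, progenitor and astrocyte genes, and not for the other cell type lists. Ribosomal protein genes had 24, 23, 24 and 23 of 24, and clock genes 16 of 17 in each library. The share over all protein-coding genes was not computed, so these counts do not identify the tissue. They come from 1 library per group, and their part in the members' scores was not tested. Numbered in accession order, these 4 libraries were replicates 3, 2, 3 and 3 of their groups, the same numbers as the score positions that were highest at most gene ends. The lists do not say whether their scores run in that order, so the scores were not assigned to libraries, and depth is unknown here. The part of the long-list libraries in the gene-end results was not tested.

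H3K4me1, which the rule did not use, was compared by the number of members that overlap an H3K4me1 peak in each library. Those numbers were 56, 62, 58 and 52 in treated heterozygotes and 74, 55, 45 and 41 in vehicle heterozygotes, with means of 57 ± 4.16 and 53.8 ± 14.7 (SD, n = 4 each). They were 65, 58 and 35 in treated wild types and 66, 36, 46 and 24 in vehicle wild types, with means of 52.7 ± 15.7 (SD, n = 3) and 43 ± 17.8 (SD, n = 4). The groups overlapped in both genotypes. The difference was 3.25 members in heterozygotes (two-sided exact permutation p = 0.743, adjusted p = 0.743 over 3 tests) and 9.67 in wild types (exact p = 0.486, adjusted p = 0.729). Vehicle heterozygotes exceeded vehicle wild types by 10.75 members (exact p = 0.4, adjusted p = 0.729), and the treatment differences of the genotypes differed by −6.42 members (exact permutation p = 0.675). The smallest p these designs allow is 0.0286. A change in H3K4me1 peaks at the members was not detectable with these libraries, whose deposited H3K4me1 lists held 88 to 456 peaks.

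**Figure D5:**
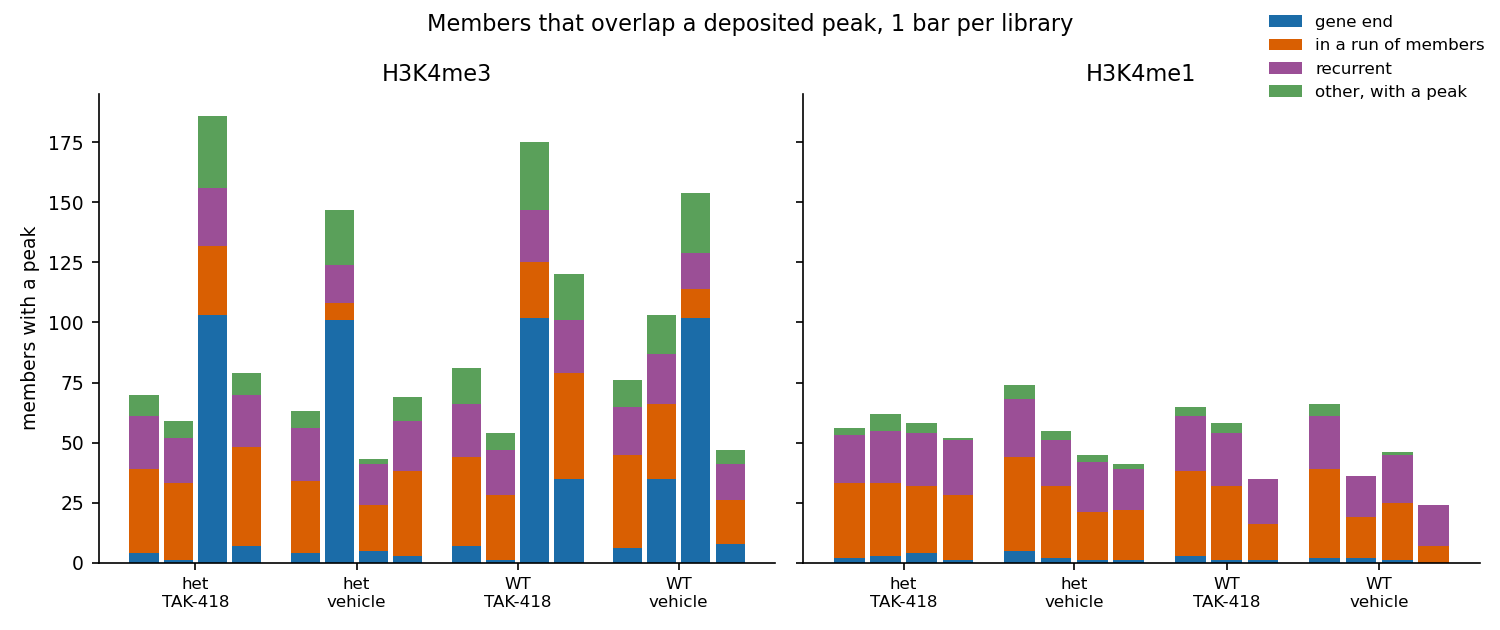
Number of the 252 members that overlap a deposited peak (vertical axis) in each library, 1 bar per library, for H3K4me3 on the left and H3K4me1 on the right, with treated and vehicle heterozygotes and then treated and vehicle wild types along the horizontal axis and colours for the kind of member. The H3K4me3 bars of 186, 147, 175 and 154 are the 4 libraries with gene-end members at 101 or more; H3K4me1 bars run from 24 to 74.

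Recurrent members have H3K4me1 peaks, and members without a peak none, by the definition of these kinds. Of the 104 gene-end members, 0 to 5 had a peak in any H3K4me1 library, and 62 of the 66 higher and 37 of the 38 lower ones had none in all 15. In the authors' H3K4me1 lists, 60 of the 201 higher members overlapped a region of the TAK-418 list in heterozygotes, 40 of them with higher and 20 with lower H3K4me1. In wild types 40 did, 17 higher and 23 lower. The whole H3K4me1 lists were higher at 59.7% and 50.9% of regions. Of the 51 lower members, 4 overlapped a heterozygote and 1 a wild type H3K4me1 region. By kind, a region of the treatment or genotype H3K4me1 lists was met at 33 of 40 members without a peak, 33 of 47 in runs and 24 of 24 recurrent ones, but at 3 of 104 gene ends, Zfp992, Bod1 and Gm51571 with Gm51572. Gene-end members thus had few H3K4me1 values to compare, and H3K4me1 at higher members was listed in both directions. The same shares over all regions of the H3K4me3 lists were not computed. Whether members or their kinds meet H3K4me1 regions more or less often than other listed regions is therefore unknown.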

How the data were processed

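ChIP-seq of H3K4me3 (16 libraries) and H3K4me1 (15 libraries) from 16 mice was used as deposited. Builds and tools were taken from the submitters' processing notes, which name mm10, MACS2, MACS and bedtools with no version or role. The deposited peak lists give, per peak, the authors' fold enrichment (a ratio) and −log10 p and −log10 q. The deposited differential lists hold the authors' −log10 p and whole-number scores, 1 per library of each group; their tool and normalization are not given in the sources used here. Scores do not name their library, so a score position is only a place in the list. No file gives read counts, so depth, intervals and floors are unknown.

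Members, classes, gene lists and motifs were chosen with earlier results of these data known. Because the rule used the H3K4me3 scores, these are described without a test. H3K4me1 peak numbers were compared by two-sided exact permutation tests over libraries, adjusted by Benjamini-Hochberg over 3 tests. Named are the 10 highest-ranked higher and lower members outside recurrent regions by the smaller absolute log2 ratio (pseudocount 10) of both genotypes, the first 3 recurrent ones of each direction, members whose groups do not overlap in both lists (0 found), and members within 2 kb of an end of a gene of 17 lists; others named were chosen after their values were seen. Genes and promoters came from RefSeq GRCm38.p6 tables, with no promoter on chromosome 18, where 9 members lie. Motifs of YY1 and NRF1 were also searched and are not reported here. Some genes at gene-end members are not reported here. Steps were tested on simulated data. Tests used scipy 1.17.1 under Python 3.11.15, tables pandas 2.3.3 with numpy 2.4.6, and figures matplotlib 3.10.9.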

Additional observations from a re-analysis of the deposited data

Results flagged for a closer look

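A value far from the other 3 of its group was found in 10 of 119 groups of 4 examined. Chance would flag about 1 in 20 independent groups, a rate that does not apply here. Most groups were scores of named members, which were ranked by those same scores and share score positions. In treated heterozygotes it was the highest H3K4me3 score at Sephs1 (162), Mef2d (273), Bace1 (182), Tfam (101), Rbm24 (136) and Atg12 with Ap3s1 (144). In treated wild types it was the highest score at Skida1 (150) and at Atg12 with Ap3s1 (271). In vehicle wild types it was the lowest score near Gm32719 (143). The treated heterozygote library with a peak at 186 members stood apart from the other 3 of its group, which had 59 to 79.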

How the results depend on the processing

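Requiring a −log10 p of at least 2 in both lists left 92 members, 77 higher and 15 lower, fewer by construction. Keeping regions of the genotype list gave 499, 422 higher and 77 lower. A longer required overlap (233 members), medians in place of means (258), members outside recurrent regions, the high score position left out of every group (chosen after seeing the data), other gene end distances, 5 libraries for a recurrent region and a pseudocount of 1 kept counts within 1.5 times and log2 medians within the spread of a group. That spread was the median over members of the SD of the 4 treated log2 scores, not the uncertainty of a median over members. Without the high position the median of lower members in heterozygotes went from −0.59 to −1.12. With a spread of 1.20, wider than the median itself, a change of that size was not flagged. Leaving out 1 score position of 1 group gave 228 to 275 members, 167 to 204 higher and 45 to 108 lower. The 275 and the 108 came without the third position of treated wild types, where 217 of the 252 members were kept. Without the second position of vehicle heterozygotes 219 of the 252 were kept. The cause was not tested. Of 448 ratios at named members with 1 score left out, 5 reversed and 3 moved beyond the spread. For a named member the spread was the SD of its 4 treated log2 scores, often wider than the ratio itself. A ratio could thus lose most of its size and not be counted. At Mef2d in heterozygotes it fell from 1.01 to 0.19, within a spread of 1.02. These counts therefore do not show that the ratios were stable. Reversed were wild types at Tfam (−1.57 to 0.0067), heterozygotes and wild types near Tcte2 (−0.78 to 0.067 and −0.81 to 0.068), and heterozygotes and wild types at Kmt2a (−0.19 to 0.94 and −0.10 to 0.69). With peaks of −log10 q of at least 5, members with an H3K4me3 peak averaged 53.8 in treated and 45 in vehicle wild types, and the H3K4me1 difference in heterozygotes was −1.75 (exact p = 0.743). Leaving out each H3K4me1 library gave −1 to 10 in heterozygotes, the −1 without the fourth vehicle library, 3.33 to 18.5 in wild types and 4 to 18.4 between genotypes, with no adjusted p from these exact tests under 0.257. Treated and vehicle libraries came from different mice, so the treatment comparisons were not paired. The H3K4me3 and H3K4me1 libraries of the same mouse were not paired either.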
